A study of Mus musculus with 2 samples.

Results

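Heme oxygenases, biliverdin reductases and the regulators Spic, Bach1 and Nfe2l2 were described across the cell classes of mouse liver macrophage preparations. The members were chosen by symbol. All 7 of them (Hmox1, Hmox2, Blvra, Blvrb, Spic, Bach1 and Nfe2l2) were found among the 26078 genes of the count matrices. The data come from 2 C57BL/6J mice aged 7 to 10 weeks, each giving 1 single-cell library of raw counts of unique molecular identifiers (UMIs, single captured RNA molecules). The Ter119 mouse received a first subcutaneous dose of 35 ug of Ter119, an antibody to a red cell surface antigen, then 10 daily doses of 10 ug. The saline mouse received a like volume of saline. Livers were taken at 24 after the last injection, with no time unit in the labels, and non-parenchymal cells were enriched on beads with antibodies to F4/80 and CD11b. With 1 mouse per group, the treatment, the mouse and the library cannot be told apart, so no p-value is given. All intervals are 95% intervals that cover counting error only.

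Macrophages of the liver and spleen take up aged and damaged red cells and digest their hemoglobin. Heme oxygenase opens the heme ring to give biliverdin, carbon monoxide and free iron. Biliverdin reductase then makes bilirubin, with electrons from NADPH. The inducible heme oxygenase gene is classically held down by BACH1, a repressor that heme binds and removes from DNA, and is switched on by NRF2, the product of Nfe2l2, at shared antioxidant response elements. SPIC is an Ets family factor required for iron-recycling macrophages of the spleen, and heme induces its gene by relieving BACH1 repression.

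The saline library held 18354 barcodes with 97181787 UMIs and the Ter119 library 25760 barcodes with 61892074 UMIs, of which 11572 and 13846 passed the filters at medians of 6239 and 2803 UMIs. The libraries shared 133 barcode sequences, 38 of them among the barcodes kept. Classes were set by the share of UMIs in fixed markers, none of them a member. The Kupffer gate, for the resident liver macrophages, took 9610 saline and 7905 Ter119 cells, which were 83.0% and 57.1% of the barcodes kept, at median depths of 6873 and 3759 UMIs. In both libraries, all 12 Kupffer markers were detected in the gated cells, and they summed to 36082 CPM (UMIs of a gene per 1000000 UMIs of the class) in the saline cells and 22210 CPM in the Ter119 cells. Of the 12, 10 were lower in Ter119, from Timd4, the lowest marker in both at 577 CPM and 25.4 CPM, to Cd5l at 7431 CPM and 5262 CPM. The other 2 were higher, Marco at 848 CPM and 4130 CPM and Fcna at 1818 CPM and 2516 CPM. Of the Ter119 Kupffer cells, 1142 lay within 20% above the cut, against 160 of saline, and 856 and 154 other barcodes lay within 20% below it. Erythroid markers summed to 152 CPM in Kupffer cells of the saline mouse and 101227 CPM in those of the Ter119 mouse, and 41.6% of the latter had more than 5% hemoglobin UMIs. The remaining marker lists summed to less than the Kupffer list in these cells. Summed levels in saline and Ter119 were 747 and 338 CPM for monocytes, 231 and 108 for dendritic cells and 155 and 509 for neutrophils. They were 406 and 414 CPM for endothelium, 2.19 and 8.67 for T or NK cells, 46.5 and 11.2 for B cells and 2268 and 316 for hepatocytes. Alb alone gave 1562 and 240 CPM of the last. Treml4, alone of the monocyte list, was no lower in Kupffer cells (191 and 220 CPM) than in monocytes (182 and 205 CPM). In saline, Ifi205, alone of the dendritic list, was at 74.5 CPM in Kupffer and 73.7 CPM in dendritic cells.

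The members lie on 5 autosomes (GRCm38, GENCODE vM21) and are all protein-coding. Hmox1 is at chr8:75093621-75100589 (plus strand), Hmox2 at chr16:4726361-4766742 (plus), Blvra at chr2:127070665-127097084 (plus), Blvrb at chr7:27447978-27466144 (plus), Spic at chr10:88674772-88685015 (minus), Bach1 at chr16:87698945-87733346 (plus) and Nfe2l2 at chr2:75675513-75704641 (minus). Exons of Hmox2 overlap those of Cdip1 on the opposite strand by 892 bases. The sources used here do not state whether counting used the strand, so Hmox2 counts are uncertain.

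Promoter windows are shown for the biliverdin reductases and Spic, since these stood higher in Ter119 Kupffer cells together. RefSeq windows on GRCm38.p6 were matched for 6 of the 7 members, and Hmox1 was the other one. Each sequence below is the 250 bases upstream of a RefSeq start, 5′ to 3′ on the gene's strand, with matches on either strand to TGANNNNGC, the core of an antioxidant response element, in capitals. The windows are chr2:127070407-127070656 (plus strand) for Blvra, chr7:27447728-27447977 (plus strand) for Blvrb and chr10:88683024-88683273 (minus strand) for Spic. The Spic window lies inside the gene's GENCODE span, upstream of a RefSeq start within it.
Blvra: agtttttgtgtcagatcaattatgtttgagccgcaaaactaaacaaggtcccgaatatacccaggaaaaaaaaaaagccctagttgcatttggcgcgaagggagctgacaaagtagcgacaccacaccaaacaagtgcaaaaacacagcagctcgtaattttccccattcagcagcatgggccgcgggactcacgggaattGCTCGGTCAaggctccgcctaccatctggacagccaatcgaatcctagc
Blvrb: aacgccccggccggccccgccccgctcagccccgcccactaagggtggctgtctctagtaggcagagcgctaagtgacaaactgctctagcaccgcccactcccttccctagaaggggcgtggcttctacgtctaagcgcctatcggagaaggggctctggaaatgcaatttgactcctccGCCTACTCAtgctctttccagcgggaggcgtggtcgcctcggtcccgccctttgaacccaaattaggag
Spic: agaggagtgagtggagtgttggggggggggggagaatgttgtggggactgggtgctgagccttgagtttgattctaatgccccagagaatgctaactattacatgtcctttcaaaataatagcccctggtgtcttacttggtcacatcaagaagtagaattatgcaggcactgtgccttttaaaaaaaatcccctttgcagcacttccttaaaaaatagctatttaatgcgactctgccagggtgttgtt
The core was found in 4 of the 9 member windows, 1 each of Blvra and Nfe2l2 and both of Blvrb, and in 35.2% of all 32851 windows of this length. The second Blvrb window, at chr7:27452168-27452417 inside the gene, held 2 matches and is not shown. The motif TGAGTCA, an AP-1 site, was in no member window and in 4.46% of all windows. The motif GAGGAAG, an Ets-type site, was in no member window and in 10.6% of all windows. A match or its absence describes only these letters in these windows.

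In Kupffer cells the first enzyme of the pathway and the Ets factor stood furthest apart between the libraries. Hmox1, the inducible heme oxygenase, stood at 969 CPM (962 to 976) in the saline library and at 5938 CPM (5911 to 5966) after Ter119, which is 6.13 times as much (6.08 to 6.18). Spic had 129 CPM (127 to 132) after saline and 448 CPM (441 to 456) after Ter119, 3.47 times as much (3.38 to 3.56). Both were therefore past 2-fold higher, and they were the only 2 of the 7 members past that size. Among the 6404 genes with at least 20 CPM in 1 library, 3.01% passed 2-fold upward and 11.2% passed it downward, and no member passed it downward. Ranked from the highest ratio, Hmox1 was at place 45 and Spic at place 87 of 6404.

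The biliverdin reductases were higher by less. Blvra, the main biliverdin reductase of adult tissue, had 109 CPM (106 to 111) after saline and 205 CPM (200 to 210) after Ter119, with a ratio of 1.88 (1.82 to 1.95). Blvrb, which also acts as a flavin reductase, had 434 CPM (429 to 439) after saline and 654 CPM (645 to 663) after Ter119, with a ratio of 1.51 (1.48 to 1.54). Hmox2, the constitutive heme oxygenase, had 159 CPM (156 to 162) after saline and 146 CPM (141 to 150) after Ter119, with a ratio of 0.916 (0.885 to 0.948). The 2 heme oxygenase genes thus differed in direction on this scale, with Hmox2 close to equal between the libraries.

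Both basic leucine zipper regulators were lower in Ter119 Kupffer cells. Bach1 had 78.1 CPM (76.0 to 80.1) after saline and 60.5 CPM (57.8 to 63.3) after Ter119, with a ratio of 0.775 (0.735 to 0.817). Nfe2l2 had 152 CPM (149 to 154) after saline and 94.3 CPM (90.9 to 97.8) after Ter119, with a ratio of 0.622 (0.597 to 0.648). The all-gene median log2 ratio was -0.34, and relative to it Hmox1 stood at 2.95, Spic at 2.13, Blvra at 1.25, Blvrb at 0.93, Hmox2 at 0.21, Bach1 at -0.03 and Nfe2l2 at -0.35. Bach1 was thus next to the median gene. The members' own median log2 ratio was 0.59.

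Scaling moved these values together. Under median-of-ratios factors the all-gene median log2 ratio shifted by 0.40, to 0.06. Of the genes past 2-fold, 21.3% were higher on the CPM scale, against 55.4% under these factors, 55.4% under TMM factors and 34.0% with hemoglobin UMIs left out of the totals. Under median-of-ratios factors the ratio was 7.94 for Hmox1, 4.50 for Spic, 2.44 for Blvra and 1.95 for Blvrb. Hmox2 then stood at 1.19 and Bach1 at 1.00, so their direction depends on the scaling, while Nfe2l2 stayed lower at 0.806. Blvra passed 2-fold under 5 of 12 alternatives.

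**Figure D1:**
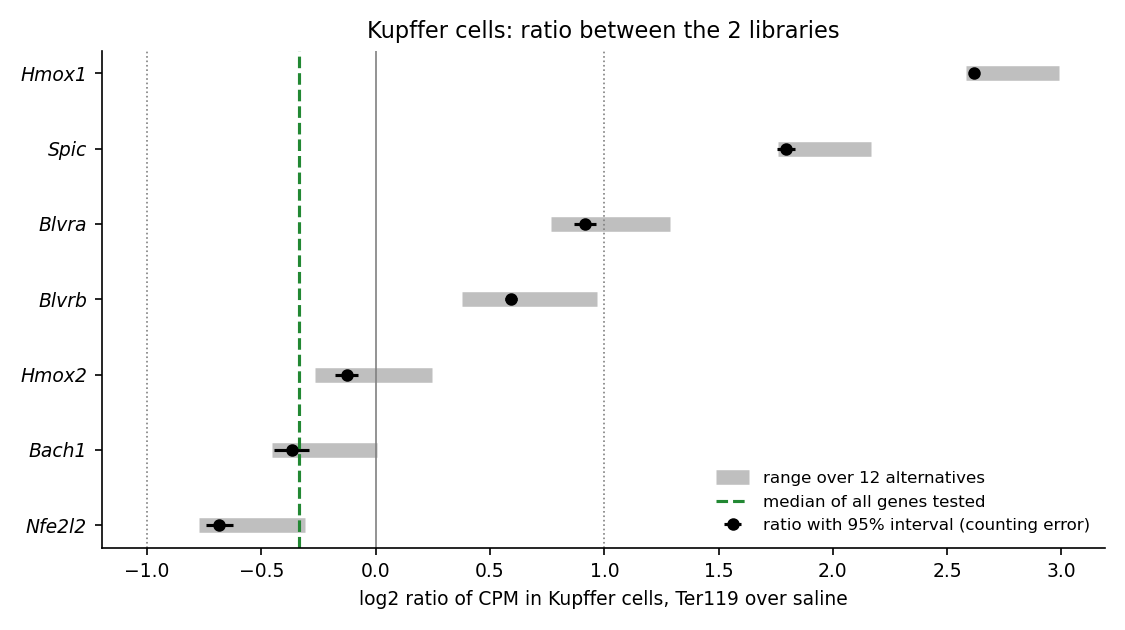
Log2 ratio of CPM in Kupffer cells, Ter119 over saline, for each gene (black points, with 95% intervals for counting error), the range over 12 alternatives (grey bars) and the median of all 6404 genes (dashed line); dotted lines mark 2-fold. Hmox1 at 2.62 and Spic at 1.79 lie past 2-fold under every alternative drawn, Hmox2 and Bach1 reach both sides of 0, and Nfe2l2 stays below it.

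At an equal depth of 1000 UMIs per cell, Hmox1 was detected in a smaller share of saline than of Ter119 Kupffer cells. Cells were thinned to 1000 UMIs each, and no Kupffer cell was too shallow for this. A UMI of Hmox1 was then found in 49.9% (48.9 to 51.0) of the cells after saline. After Ter119 it was found in 96.9% (96.4 to 97.2). At all UMIs it was found in 88.9% of saline and 99.7% of Ter119 Kupffer cells, so the saline share depends on depth. The saline median was 0 UMIs and the highest cell had 22. The Ter119 median was 6 UMIs, with 2 at the 10th percentile and 11 at the 90th, and 249 of 7905 cells had none. The Ter119 distribution had a single broad peak, at 5 UMIs. The variance of Hmox1 over its mean was 2.43 in saline and 2.21 in Ter119 cells, above the value of 1 for counting alone. The other 6 members lay between 1.00 and 1.12. The mean was 1.00 UMI in saline and 6.06 in Ter119 for Hmox1, and between 0.0606 and 0.647 for the others. At a given relative spread this measure rises with the mean, so it does not compare spread between genes or libraries.

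Thinned detection of the other members followed the summed levels. Spic was found in 11.5% (10.9 to 12.2) of saline and 35.4% (34.4 to 36.5) of Ter119 Kupffer cells. Blvrb was found in 33.2% and 46.0%, and Blvra in 9.34% and 19.2%. Hmox2 was found in 14.4% and 13.3%, Bach1 in 7.24% and 5.83%, and Nfe2l2 in 13.6% and 9.08%. At all UMIs, where saline cells are deeper, Blvra was found in 48.0% and 50.2%, Blvrb in 81.3% and 81.7% and Spic in 49.4% and 73.4%. Hmox2 was then found in 59.3% and 40.9%, Bach1 in 39.3% and 20.1%, and Nfe2l2 in 56.2% and 29.0%. For comparison, 124 Ter119 T or NK cells had a thinned UMI of Spic in 11.3%, Blvrb in 21.8%, Blvra in 10.5%, Hmox2 in 4.84%, Bach1 in 4.84% and Nfe2l2 in 7.26%.

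**Figure D2:**
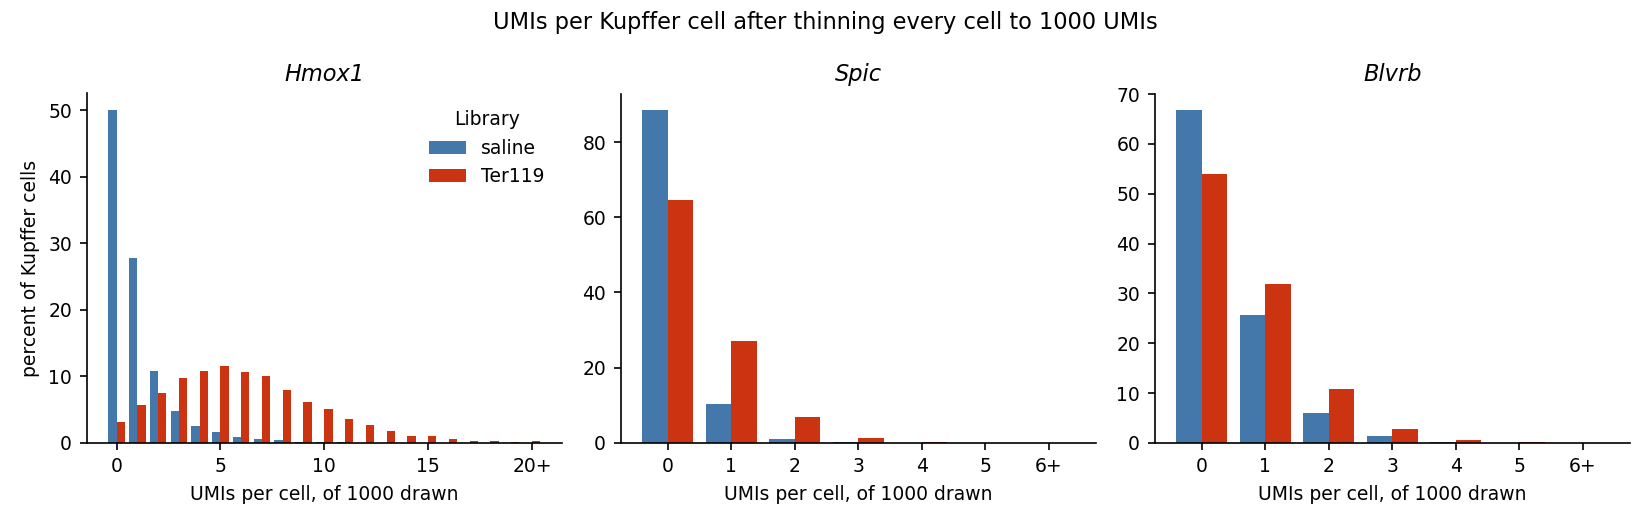
Share of Kupffer cells (percent) by the number of UMIs of Hmox1, Spic or Blvrb among 1000 UMIs drawn from each cell, for the saline and the Ter119 library. Hmox1 shows 50.1% of saline cells at 0 against 3.15% of Ter119 cells, whereas for Spic and Blvrb most cells of either library are at 0 or 1.

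In saline, Spic was the one member whose detection differed with that of Hmox1 beyond the intervals. Of saline Kupffer cells with a Spic UMI, 57.6% (54.6 to 60.5) also had an Hmox1 UMI, against 49.0% (47.9 to 50.0) of cells without one. This was the 1 pair of 21 whose intervals were apart in saline. In the Ter119 library 5 of 21 pairs were apart, but Hmox1 was near its ceiling there. Hmox1 was found in 97.7% of cells with and 96.4% without Spic, in 98.1% with and 96.6% without Blvra, and in 98.1% with and 96.7% without Hmox2. Blvrb was found in 49.8% of cells with and 45.1% without Blvra, and in 40.3% of cells with and 46.4% without Bach1. Hemoglobin UMIs are among the 1000 drawn. With hemoglobin UMIs removed before thinning, 7682 Ter119 cells were deep enough. Hmox1 with Spic was the 1 pair apart among them, by 1.43 percentage points, and in saline the difference was 8.25 points. Saline Kupffer cells had a median of 0% hemoglobin UMIs, so their value is in effect a second random draw from the same cells. The saline intervals met when cells with over 5% mitochondrial UMIs were left out, where 1537 saline cells remained and the difference was 6.71 points. These are differences between cells of 1 mouse, given without a test.

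The share was also taken by the number of Hmox1 UMIs. In saline, Spic was found in 9.75% (8.93 to 10.6) of cells without an Hmox1 UMI, in 11.6% with 1 to 2, in 17.2% with 3 to 5 and in 24.6% (18.8 to 31.2) with 6 to 10. The top bin of 11 or more held 24 saline cells, 10 of them with Spic. In Ter119, Spic was found in 26.1% (20.8 to 32.0), 28.9%, 34.3%, 37.2% and 42.6% (39.4 to 45.9) of cells over the same 5 bins. Blvrb was at 34.1%, 32.1%, 33.6% and 31.2% over the first 4 saline bins and between 40.2% and 47.1% in Ter119. Other members also went up over the Ter119 bins: Blvra was found in 11.6%, 16.0%, 19.4%, 20.2% and 21.2% of cells, and Hmox2 in 8.03% without Hmox1 and 17.1% in the top bin. The median hemoglobin share of the Ter119 cells went down over the bins, from 12.6% to 0.773%. With hemoglobin UMIs removed first, Spic was found in 21.4%, 36.6%, 36.1%, 39.5% and 42.4% of Ter119 cells and in 9.58%, 11.5%, 16.9% and 21.9% of saline cells over the first 4 bins. Blvra was then at 18.8%, 20.2%, 21.4%, 19.1% and 20.9% in Ter119, and Hmox2 at 18.2%, 14.3%, 16.0%, 14.6% and 15.2%. For saline cells, which held next to no hemoglobin UMIs, this is in effect a second random draw. The saline top bin then held 20 cells, 2 of them with Spic, so no level can be read from it.

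**Figure D3:**
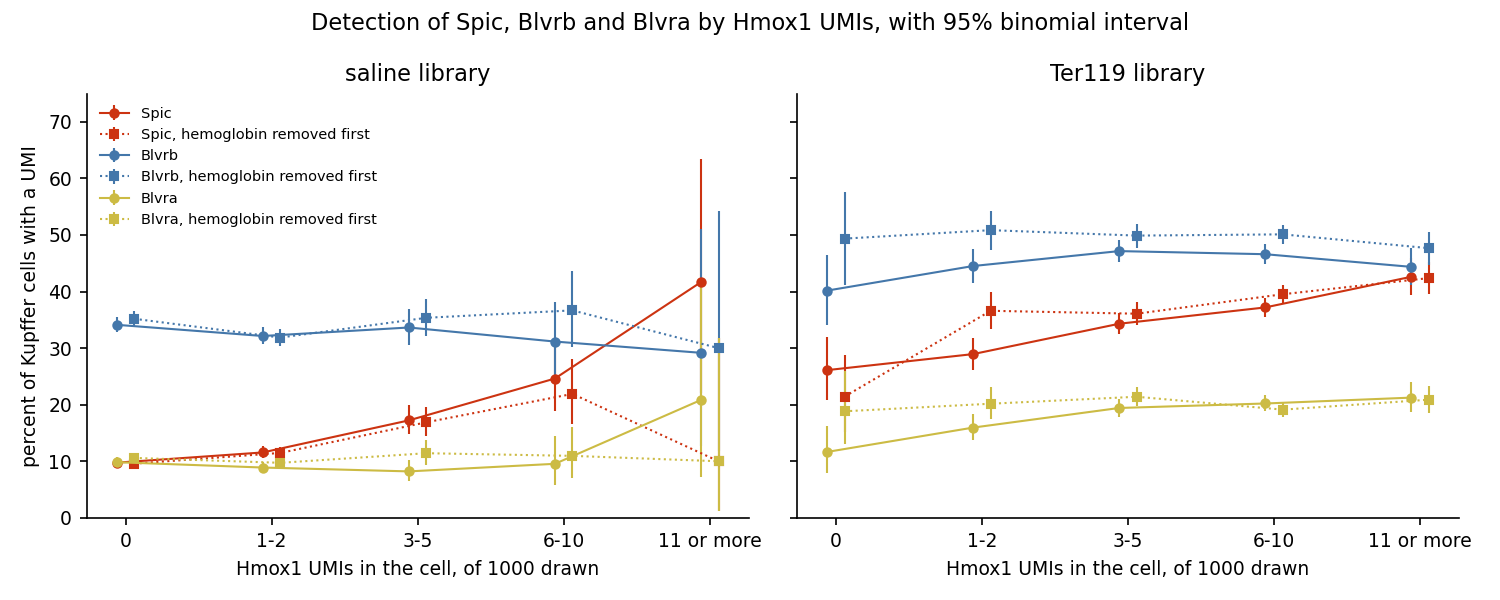
Share of Kupffer cells (percent, with exact binomial 95% intervals) with a UMI of Spic, Blvrb or Blvra by the number of Hmox1 UMIs in the cell, among 1000 UMIs drawn; dotted lines with squares have hemoglobin UMIs removed before the draw. On the solid lines Spic goes from 9.75% to 24.6% over the first 4 saline bins and from 26.1% to 42.6% in Ter119, where Blvra goes from 11.6% to 21.2%. On the dotted Ter119 lines Spic is at 21.4% without Hmox1 and between 36.1% and 42.4% with it, Blvra stays between 18.8% and 21.4%, and the saline bin of 11 or more rests on 24 or 20 cells.

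The members' levels differed little between Ter119 Kupffer cells with little and with much hemoglobin RNA. Cells were put in 6 bins by the hemoglobin share of their UMIs, and levels were taken over non-hemoglobin UMIs. Hmox1 was at 6376 CPM (6328 to 6424) in cells under 0.5%, 7101 CPM (6984 to 7219) at 2 to 5% and 6454 CPM (6371 to 6537) at 20% or more. The bin with the highest level was 1.11 times the lowest for Hmox1, 1.14 times for Spic, 1.08 times for Blvra, 1.10 times for Blvrb, 1.19 times for Nfe2l2, 1.26 times for Bach1 and 1.28 times for Hmox2. Hmox1 in the 2549 cells under 0.5% hemoglobin was thus close to that in the 1259 cells at 20% or more. The source of the hemoglobin RNA was not tested.

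**Figure D4:**
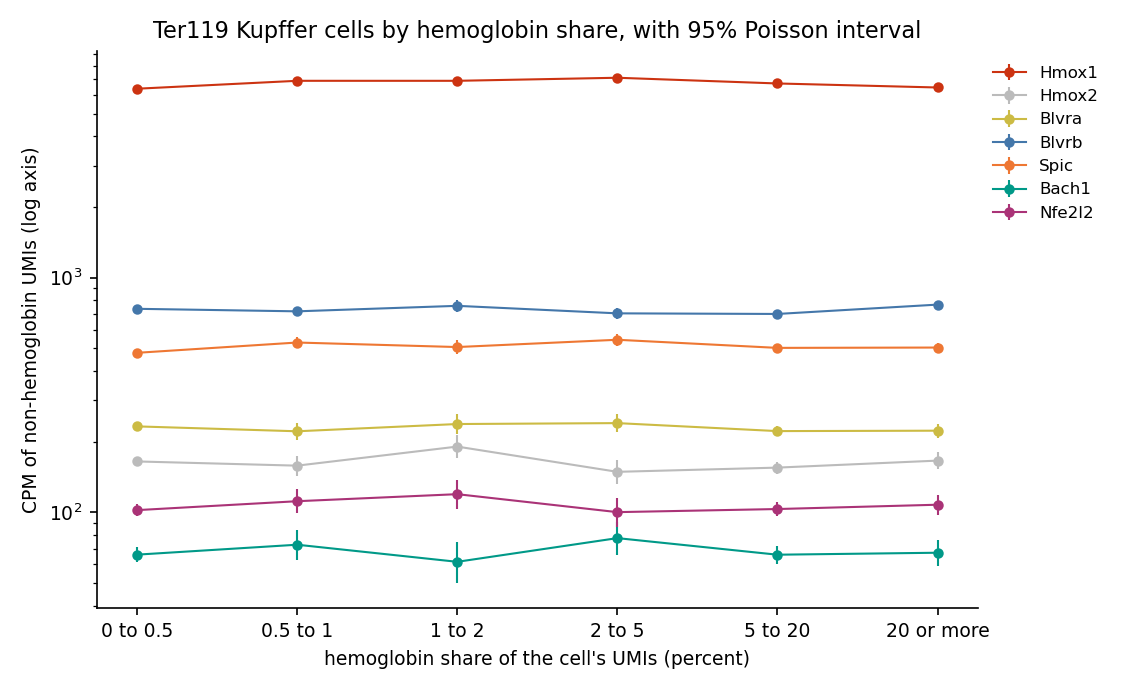
CPM over non-hemoglobin UMIs (log axis, with 95% Poisson intervals) of each gene in Ter119 Kupffer cells, by the hemoglobin share of the cell's UMIs in percent. Every line is close to level: Hmox1 stays between 6376 and 7101 CPM and Spic between 478 and 543 CPM.

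Across the other classes, Hmox1 had its highest level in Kupffer cells in both libraries. In saline, neutrophils had 238 CPM (201 to 281), monocytes 177 CPM (159 to 198) and endothelial cells 161 CPM (146 to 178). B cells had 158 CPM (119 to 207), dendritic cells 63.6 CPM (46.2 to 85.4) and T or NK cells 47.7 CPM (17.5 to 104). The intervals of monocytes, endothelial cells and B cells overlapped, as did those of dendritic and T or NK cells. In Ter119, erythroid barcodes had 2546 CPM (2474 to 2620), endothelial cells 1822 CPM (1765 to 1881), monocytes 1604 CPM (1549 to 1660), T or NK cells 1455 CPM (1312 to 1608), neutrophils 1454 CPM (1399 to 1512), B cells 1445 CPM (1218 to 1701) and dendritic cells 821 CPM (740 to 909). T or NK cells, neutrophils and B cells had nearly the same level.

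Kupffer markers were also counted in the other classes, where free RNA in the droplets, doublets or attached cell fragments can give such UMIs, and these sources cannot be told apart here. In saline, the median of the 12 Kupffer markers was at 7.88% of its Kupffer level in monocytes, 5.75% in dendritic cells, 17.3% in neutrophils, 11.1% in endothelial cells, 10.2% in T or NK cells and 9.23% in B cells. In Ter119 it was at 20.2%, 15.2%, 19.5%, 21.9%, 22.6% and 19.9% in the same order, and at 21.3% in erythroid barcodes. Hmox1 in Ter119 was at 27.0%, 13.8%, 24.5%, 30.7%, 24.5% and 24.3% of its Kupffer level in that order and at 42.9% in erythroid barcodes. The erythroid barcodes had a median of 46.2% hemoglobin UMIs, against 1.63% in Ter119 Kupffer cells. These UMIs are in the totals and lower the erythroid values for other genes. Over non-hemoglobin UMIs, the median Kupffer marker share was 1.01% in erythroid barcodes, against 0.338% to 0.538% in the 6 other Ter119 classes above. The part of Kupffer RNA in the erythroid values was not tested. The ranges over the 12 markers in Ter119 were 6.77% to 29.95% in T or NK cells and 0% to 35.7% in B cells. Thinned detection of Hmox1 was 64.5% in Ter119 T or NK cells (median depth 1642 UMIs) against 4.17% in the 24 saline ones (median 4542). Spic in Ter119 was at 17.3% to 31.4% of its Kupffer level in the 6 classes other than erythroid, and at 49.2% in erythroid barcodes. In saline it was at 4.63% to 16.4% in the same 6 classes.

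The ratios between libraries in these classes stand beside those marker values. Hmox1 was 9.05 times higher (8.07 to 10.2) in monocytes, 12.9 times (9.43 to 18.1) in dendritic cells, 6.10 times (5.14 to 7.28) in neutrophils and 11.3 times (10.2 to 12.6) in endothelial cells. Spic was 6.52, 7.68, 7.61 and 6.62 times higher and Blvrb 2.37, 3.90, 2.54 and 2.53 times higher in the same order. Of the 7 members, 3 were at least 2-fold higher in monocytes and in endothelial cells, where 1.92% and 2.52% of genes were. In dendritic cells and in neutrophils 4 were, Blvra being the fourth, where 4.5% and 11.8% of genes were. Blvra rested there on 24 and 19 saline UMIs. Its ratios of 2.11 (1.21 to 3.73) and 2.09 (1.28 to 3.59) have intervals that reach below 2-fold. No member was at least 2-fold lower in monocytes, dendritic cells or endothelial cells, where 4.0%, 8.29% and 6.08% of genes were. The part of Kupffer RNA in these ratios was not tested.

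Bach1 and Nfe2l2 had another distribution, with their highest levels outside Kupffer cells. In saline, Bach1 was at 202 CPM (182 to 223) in monocytes, 191 CPM (157 to 230) in neutrophils and 132 CPM (118 to 147) in endothelial cells, which were 258%, 244% and 169% of the Kupffer level. Nfe2l2 was at 290 CPM (266 to 316), 274 CPM (234 to 320) and 227 CPM (209 to 247) in the same classes. In Ter119, monocytes still had 239% and endothelial cells 198% of the Kupffer level of Bach1. Neutrophils had the largest gap between libraries: Bach1 was at 53.0 CPM (42.8 to 64.9), 3.60 times lower than in saline, and Nfe2l2 at 133 CPM (117 to 151), 2.06 times lower. They were the only members at least 2-fold lower in any of these 5 classes. In neutrophils 29.9% of genes were at least 2-fold lower, so this is a common size of difference there, and the summed neutrophil markers stood at 138795 CPM (saline) and 274016 CPM (Ter119). Within that sum the markers went apart. Csf3r was at 2598 and 142 CPM, Cxcr2 at 1530 and 120.1 CPM and Retnlg at 6510 and 1558 CPM, all known from mature neutrophils. The secondary granule genes of immature neutrophils were at 1465 and 30781 CPM for Camp, 293 and 24487 CPM for Ngp and 17.0 and 5792 CPM for Ltf. The neutrophil class thus held different marker profiles in the 2 libraries, and their part in the Bach1 and Nfe2l2 values was not tested.

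Hmox2 and the reductases were also detected outside Kupffer cells. Hmox2 in saline ran from 46.0 CPM in neutrophils to 98.5 CPM in endothelial cells, 28.9% to 61.9% of its Kupffer level. Blvra in saline monocytes was at 72.9 CPM (61.1 to 86.3), 67.0% of the Kupffer level, and in saline B cells at 13.7% of it. Blvrb in endothelial cells was at 168 CPM (152 to 185) in saline and 425 CPM (398 to 454) in Ter119, 38.8% and 65.0% of the Kupffer level. In saline dendritic cells Blvrb was at 8.67% of the Kupffer level and in saline neutrophils at 19.2%.

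**Figure D5:**
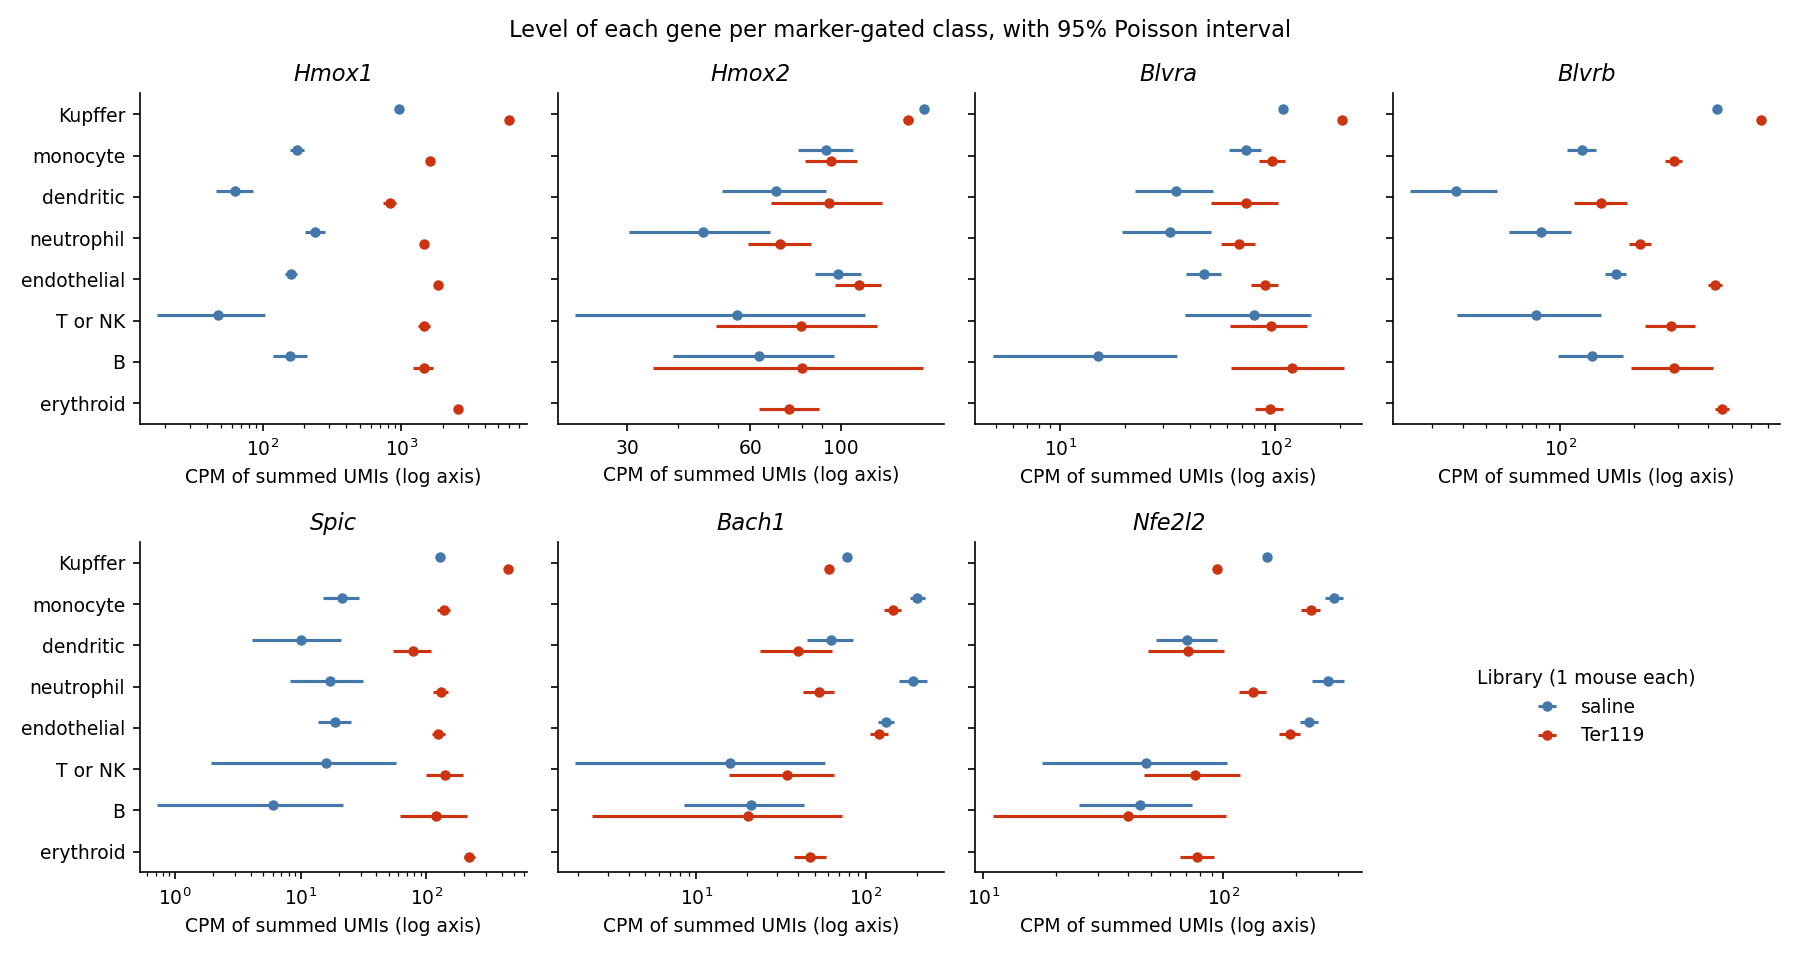
CPM of UMIs summed per class (log axes that differ between panels, with 95% Poisson intervals) for each gene, in the saline and the Ter119 library; of the 12 classes 8 are drawn, and saline had no erythroid barcodes. Kupffer cells are the highest class drawn for Hmox1, Hmox2, Blvra, Blvrb and Spic in both libraries, and monocytes for Bach1 and Nfe2l2.

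Likeness was taken over the 13 pools of a class and library with at least 50 cells. Its 5663 candidates left out the 7 members, the gate markers and mitochondrial, ribosomal, hemoglobin and unnamed genes. The candidates whose log2 level was most like that of Hmox1 were Pld3 (Pearson r 0.972), Cela1 (0.965), Ccr3 (0.961), Gpx3 (0.955) and Vcam1 (0.955). For Spic, again outside the members, they were Epb41l3 (0.956), Cela1 (0.954), Ccr3 (0.953), Gpx3 (0.946) and Prdx1 (0.943). Hmox1 and Spic had r 0.967 with each other, below Pld3 alone of the genes listed for Hmox1 and above every gene listed for Spic. Hmox1 had r 0.895 with Blvrb, 0.819 with Blvra, 0.486 with Hmox2, -0.07 with Nfe2l2 and -0.16 with Bach1. The pools share 2 libraries and their free RNA, so these values are a description.

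Other genes of the pathway differed by step, and their counts are to be set beside the 3.01% of all genes that were at least 2-fold higher and the 11.2% that were lower. Of 10 iron storage and export genes measured at 20 CPM or more in Kupffer cells, 2 were at least 2-fold higher and none lower. These were the ferritin chains that store the iron released from heme, Fth1 at 5663 and 29214 CPM (ratio 5.16) and Ftl1 at 7103 and 17635 CPM (ratio 2.48). Among 7 of 12 heme and bilirubin transport and capture genes measured, 1 was higher and 4 lower. Slc48a1, which carries heme out of the phagolysosome, was at 161 and 400.5 CPM, with a ratio of 2.49. Cd163, which takes up complexes of haptoglobin and hemoglobin, was at 833 and 28.6 CPM, 29.2 times lower. The plasma proteins Hpx and Hp, made by hepatocytes, were 4.15 and 2.77 times lower, with the hepatocyte marker sum at 2268 and 316 CPM. Of the other saline classes with at least 20 cells, neutrophils had the most Hp (1208 CPM) and endothelial cells the most Hpx (47.6 CPM). The part of RNA from any of these cells in the Kupffer values was not tested.

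Electron supply differed within the list of 4 genes measured. Por, the reductase that gives electrons to heme oxygenase, was at 60.2 and 219 CPM, 3.64 times higher, while Nadk, which makes NADP, was at 142 and 60.6 CPM, 2.34 times lower. Cyb5r3 (0.771) and Idh1 (1.07) were within 2-fold. Of 13 NRF2 target genes measured, 5 passed 2-fold upward, against 3.01% of all genes, and none downward, with a list median log2 ratio of 0.62 against -0.34 for all genes. Gstm1 was 6.46 times higher, Mgst1 5.28 times, Gclm, a subunit of the glutathione-making ligase, 3.97 times and Me1 3.69 times. The 7 measured partners and inhibitors of BACH1 and NRF2 were all within 2-fold, at a median of -0.05: Sqstm1 had a ratio of 1.70, Fbxo22 1.61, Mafg 0.791 and Keap1, which marks NRF2 for breakdown, 0.831.

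Of 5 heme synthesis genes measured, Alas2, the erythroid first enzyme, was at 0.689 and 209.8 CPM and Cpox was 2.04 times lower. Alas2 was at 882 CPM in erythroid barcodes. It is 1 of the 11 erythroid markers, so the erythroid marker sum given above includes it. The part of erythroid RNA in the Alas2 level of Kupffer cells was not tested. Fech, the last enzyme, was at 46.6 and 78.1 CPM (ratio 1.68), and at 210 CPM in Ter119 erythroid barcodes. The part of erythroid RNA in the Fech level was not tested either. Alas1 had a ratio of 0.598. Of 9 Ets and macrophage regulators measured, none was at least 2-fold higher and 1 was lower, with a median of -0.69. Id3 was 2.51 times lower, and Cebpb (0.516), Nr1h3 (0.579) and Zeb2 (0.614) were lower by less, so Spic stood apart in direction from the genes named on this list.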

How the data were processed

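The members, markers, gene lists and gate cuts were chosen with earlier results of these data known. For each mouse a deposited matrix of raw UMI counts was used, made with Cell Ranger, version 6.0.2 per the file headers. Version 4.0.0 and the build GRCm38.p6 stand in the submitters' processing notes. How hashtags were used to tell the mice apart was not stated in these sources.

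Barcodes with at least 1000 UMIs, 500 genes and at most 15% mitochondrial UMIs were kept. A class needed a share of non-hemoglobin UMIs in its markers at or above a cut (1.5% for Kupffer cells) and 3 UMIs from 2 markers. Barcodes passing more than 1 gate were left out as mixed (279 saline, 365 Ter119), except that neutrophil took precedence over monocyte, and no doublet caller was run. Barcodes passing none with at least 20% hemoglobin were erythroid. Cuts and precedence were set after seeing the marker shares. Counts were summed per class and library and given as CPM with exact Poisson intervals. Ratios have exact conditional binomial intervals and shares Clopper-Pearson intervals. Calls are 2-fold among genes with at least 20 CPM in 1 library. The rule for named genes took all members, up to 4 measured genes per list, those with the largest absolute log2 ratios, and the 5 genes most like Hmox1 and Spic by Pearson r of log2(CPM + 1). Likeness used genes with at least 50 CPM in 1 pool, without the members, the gate markers and mitochondrial, ribosomal, hemoglobin and unnamed genes. The ratio calculation was checked on simulated Poisson counts for the Kupffer comparison over 6190 genes. All 200 genes given changes clear of the 2-fold cut were called, so genes near the cut were not checked. Of the intervals, 95.1% held the true ratio. The simulated counts held no variation between mice or cells, so they check the calculation only and not a difference between 2 mice. Alternatives were other gates, leiden clusters (2000 variable genes, 30 components, 15 neighbours, resolution 1.0), scalings, filters and thinning depths. Computation used python 3.11.15 with scipy 1.17.1 and leidenalg 0.10.2, and edgeR 4.0.16 for TMM factors only.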

Additional observations from a re-analysis of the deposited data

How the results depend on the processing

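No paired analysis was possible because each group has 1 library and its replicate number only names it. In Kupffer cells 2 members passed 2-fold upward and 0 downward. The count of higher members was 2 or 3 and that of lower members 0 under all 13 alternatives run: gate cuts at 0.5 or 2 times, a Kupffer gate without the C1q genes, leiden clusters, 3 scalings, at least 2000 UMIs, at most 5% mitochondrial UMIs, no shared barcode sequences, no hemoglobin-rich barcodes, no minimum level and, chosen after seeing the data, ungated barcodes added. Log2 ratios ranged from 2.58 to 2.99 for Hmox1, 1.76 to 2.17 for Spic, 0.77 to 1.29 for Blvra, 0.38 to 0.97 for Blvrb, -0.27 to 0.25 for Hmox2, -0.45 to 0.01 for Bach1 and -0.77 to -0.31 for Nfe2l2. Each of the 15 Kupffer clusters held over 90% of its cells from 1 library. Co-detection in Ter119 cells was less stable: Blvrb by Bach1 went from -6.04 percentage points to 8.43 at all UMIs, 1.26 thinned to 2000 UMIs and 0.415 at 2 times the cuts, Hmox1 by Blvra from 1.54 to -0.164 thinned to 2000 UMIs, Hmox1 by Spic from 1.29 to -0.164 at 2 times the cuts (1488 cells), and Hmox1 by Hmox2 from 1.44 to -0.479 with hemoglobin UMIs removed before thinning, an alternative chosen after seeing the data. The cause was not tested. At all UMIs 21 saline and 18 Ter119 pairs were apart, where cells also differ in depth. Classes of under 100 cells give wide intervals.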

Other observations

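Barcodes that passed no gate numbered 350 in saline and 1816 in Ter119. In the Ter119 ones Hmox1 was at 4293 CPM, 72.3% of its Kupffer level, Spic at 338 CPM and Blvrb at 659 CPM, the latter at 101% of its Kupffer level, while the median Kupffer marker was at 34.9%. In the saline ones Hmox1 was at 265 CPM, 27.3% of its Kupffer level, and the median Kupffer marker at 13.4%. The 24 Ter119 barcodes in the stellate or fibroblast gate had 1761 CPM of Hmox1.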
